A study of Homo sapiens with 26 samples.

Results

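VIM and 8 regulators and surface or matrix genes of the mesenchymal cell state (ZEB1, ZEB2, SNAI1, SNAI2, TWIST1, CDH2, CDH11 and FN1) were followed across 9 cell lines. The genes were taken by symbol from a deposited expression table, and all 9 were among its 33562 genes. In an epithelial-mesenchymal transition, cells lose the junctions that hold an epithelium together and take up a motile, matrix-producing state. ZEB1, ZEB2, SNAI1, SNAI2 and TWIST1 are DNA-binding factors that drive it, the ZEB and SNAI proteins mainly by repressing epithelial genes such as CDH1, the gene of E-cadherin. VIM encodes vimentin, the intermediate filament protein of mesenchymal cells, CDH2 and CDH11 encode N-cadherin and OB-cadherin, and FN1 encodes the matrix glycoprotein fibronectin.

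The lines derive from MDA-MB-231, a human breast cancer cell line that lacks hormone receptors and is already mesenchymal in character, here in the luciferase-bearing version MDA-MB-231Luc. The study asked how the location of Aurora-A kinase (gene AURKA) in the cell relates to the transcriptome, and its design text also names metastasis in xenografts. All 9 lines carried the pLUTZ mRFP vector and were kept in doxycycline, which switches on the AURKA cDNA through an rtTA-responsive promoter. The 3 control lines (Empty, NES-Empty and NLS-Empty) carried empty vectors and a guide labelled sgCon, and were at passage 19 to 20. The 6 AURKA lines, labelled c1 to c3 and called clones here, were at passage 32 to 35, with 2 per construct. The WT-AURKA clones c1 and c2 and the NES-AURKA clones c1 and c2 (NES, a nuclear export signal) carried a cDNA labelled MUT2 and the guide sgAURKA2. The NLS-AURKA clones c2 and c3 (NLS, a nuclear localisation signal) carried a cDNA labelled MUT1 and the guide sgAURKA1. AURKA cDNA, guide and passage therefore differ together between AURKA and control lines, NLS differs from the other constructs also in guide and cDNA version, and these cannot be told apart.

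Each line had 3 libraries, except WT-AURKA c2 with 2, so 26 libraries were used. The values are RPKM, reads scaled to gene length and to the mapped reads of the library. Each library's title begins with a letter, and 8 libraries, A to H, stood apart from the 18 libraries I to Z. The A to H libraries had 174.6 to 561 RPKM of the nuclear RNA MALAT1, against 6.10 to 33.5 RPKM in I to Z. Estimated gene-assigned reads were 16800000 to 20200000 in A to H and 12200000 to 16800000 in I to Z. Of 12589 genes tested, 72.5% differed between the letter sets at an adjusted p under 0.05, and the labels do not say what separates them. Every line except WT-AURKA c2 had 1 library of the first set, so values are given for both sets. The AURKA row, which holds what is left of the endogenous transcript and the cDNA, was 34.1 to 69.0 RPKM in control libraries, 15.5 to 37.0 in NES-AURKA and 38.4 to 104.6 in NLS-AURKA. It was 12.7 to 14.3 RPKM in 4 of 5 WT-AURKA libraries and 84.1 in library D of WT-AURKA c1. The labels do not say that libraries came from separate cultures, so p-values between single lines measure only the spread between these libraries, which may be technical. In bulk RNA, fewer cells with a transcript and less of it per cell cannot be told apart.

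Marker genes of the line and of other cell types were checked. ESR1 and PGR, the estrogen and progesterone receptor genes, reached at most 0.0221 and 0.0120 RPKM, and ERBB2 stayed at 2.25 to 5.06 RPKM. The luminal keratins KRT8 (28.1 to 104.0 RPKM) and KRT18 (65.3 to 222.0 RPKM) were present in all 26 libraries. Of other cell types, the leukocyte genes PTPRC and CD3E reached at most 0.128 and 0.0252 RPKM, and CD68, a lysosomal protein gene, stood at 27.2 to 70.7 RPKM in every library. The 5 endothelial markers summed to 0.521 to 0.941 RPKM in control and 0.502 to 4.58 RPKM in AURKA libraries, with KDR at up to 4.08 RPKM in NLS-AURKA, while CDH5 and VWF reached at most 0.112 and 0.0515 RPKM. The 5 fibroblast markers summed to 0.442 to 1.79 RPKM in control and 0.219 to 1.496 RPKM in AURKA libraries. Of these markers, CD68 was higher in NLS-AURKA than in NES-AURKA and WT-AURKA lines by 0.42 and 0.95 (adjusted p = 0.0119 and 0.000236), and KDR by 1.78 and 1.41 (adjusted p = 1.71e-05 and 6.95e-05). VIM was called in the same comparisons. KDR reached the 1 RPKM needed for testing in only 6 of 26 libraries, none of them a control library. Its highest values were in NLS-AURKA, so the test of KDR was not independent of the filter. CD68 was also called higher in NES-AURKA than in WT-AURKA lines. LUM, a fibroblast marker, was called lower in AURKA than in control lines (-0.64), and the call was lost in A to H alone. It reached 1 RPKM in only 5 of 26 libraries and at most 1.34 RPKM, so its test may not be independent of the filter. The part of these markers in the results was not tested.

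To show the letters upstream of the members that differed most, RefSeq promoter sequence (build GRCh38.p14) was read for VIM and FN1 and for ZEB1, the repressor gene whose level followed VIM over the lines. The 250 bases before the annotated start are given 5′ to 3′ on the gene's strand: VIM at chr10:17227991-17228240 (plus strand), FN1 at chr2:215436069-215436318 (minus strand) and the most upstream of 7 listed starts of ZEB1 at chr10:31318167-31318416 (plus strand). Both strands were searched. Capitals mark 3 words: the E-box bound by ZEB and SNAI proteins (CACCTG, which reads CAGGTG from the other strand), the cAMP response element (TGACGTCA) and the AP-1 site (TGANTCA).
VIM: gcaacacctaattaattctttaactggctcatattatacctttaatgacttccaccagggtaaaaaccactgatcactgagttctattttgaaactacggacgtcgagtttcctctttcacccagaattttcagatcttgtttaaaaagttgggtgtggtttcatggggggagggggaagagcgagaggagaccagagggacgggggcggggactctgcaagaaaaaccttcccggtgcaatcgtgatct
FN1: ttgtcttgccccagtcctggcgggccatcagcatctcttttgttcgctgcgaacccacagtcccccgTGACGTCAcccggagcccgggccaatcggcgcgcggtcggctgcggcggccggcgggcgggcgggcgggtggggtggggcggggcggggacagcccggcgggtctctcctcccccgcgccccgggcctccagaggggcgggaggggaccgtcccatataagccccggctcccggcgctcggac
ZEB1: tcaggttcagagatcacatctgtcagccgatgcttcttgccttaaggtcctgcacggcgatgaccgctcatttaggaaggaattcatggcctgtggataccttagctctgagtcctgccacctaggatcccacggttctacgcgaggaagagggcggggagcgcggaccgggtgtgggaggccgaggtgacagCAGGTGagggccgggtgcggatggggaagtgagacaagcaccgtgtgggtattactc
The VIM stretch held none of these words on either strand. FN1 held 1 TGACGTCA, 183 bases before the start, with a CCAAT word 162 bases before the start and 6 GC boxes (GGGCGG) nearer to it. ZEB1 held 1 CAGGTG, 57 bases before this start. The VIM and ZEB1 stretches each held 1 GC box as well, 46 and 99 bases before the start. Over 35116 RefSeq windows of 250 bases, 17.5% held the E-box on either strand, 1.65% the cAMP response element and 6.57% the AP-1 site. The CCAAT word was in 32.0% of those windows and the GC box in 42.6%. Windows were listed for 5 of the 9 members. Those of ZEB2 and CDH2 held no such E-box, and the third ZEB1 start had 2 such words before it. The deposited values are per gene, so they do not say which ZEB1 start was used.

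VIM was among the most abundant transcripts, above 99.8% of the tested genes by mean RPKM, and was highest in the NLS-AURKA lines. Both NLS-AURKA clones and NES-AURKA c2 had more than 590 RPKM in every library, while no control library exceeded 374.6. The values were 254.7, 374.6 and 330.8 RPKM in Empty, 235.9, 359.2 and 329.0 in NES-Empty, and 251.0, 369.4 and 355.0 in NLS-Empty, with the A to H library first. WT-AURKA c1 had 374.6, 361.7 and 406.5 RPKM and WT-AURKA c2 417.0 and 348.0. NES-AURKA c1 had 234.4, 411.9 and 417.9 RPKM. These 6 lines overlapped from one to the next in the order of their means, 308.0 to 382.5 RPKM. NES-AURKA c2 had 590.2, 688.5 and 747.1 RPKM, NLS-AURKA c3 700.2, 866.6 and 919.8, and NLS-AURKA c2 667.4, 1059 and 969.2. The upper 3 lines did not overlap the lower 6, and the 2 clones of NES-AURKA fell on different sides of the gap.

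**Figure D1:**
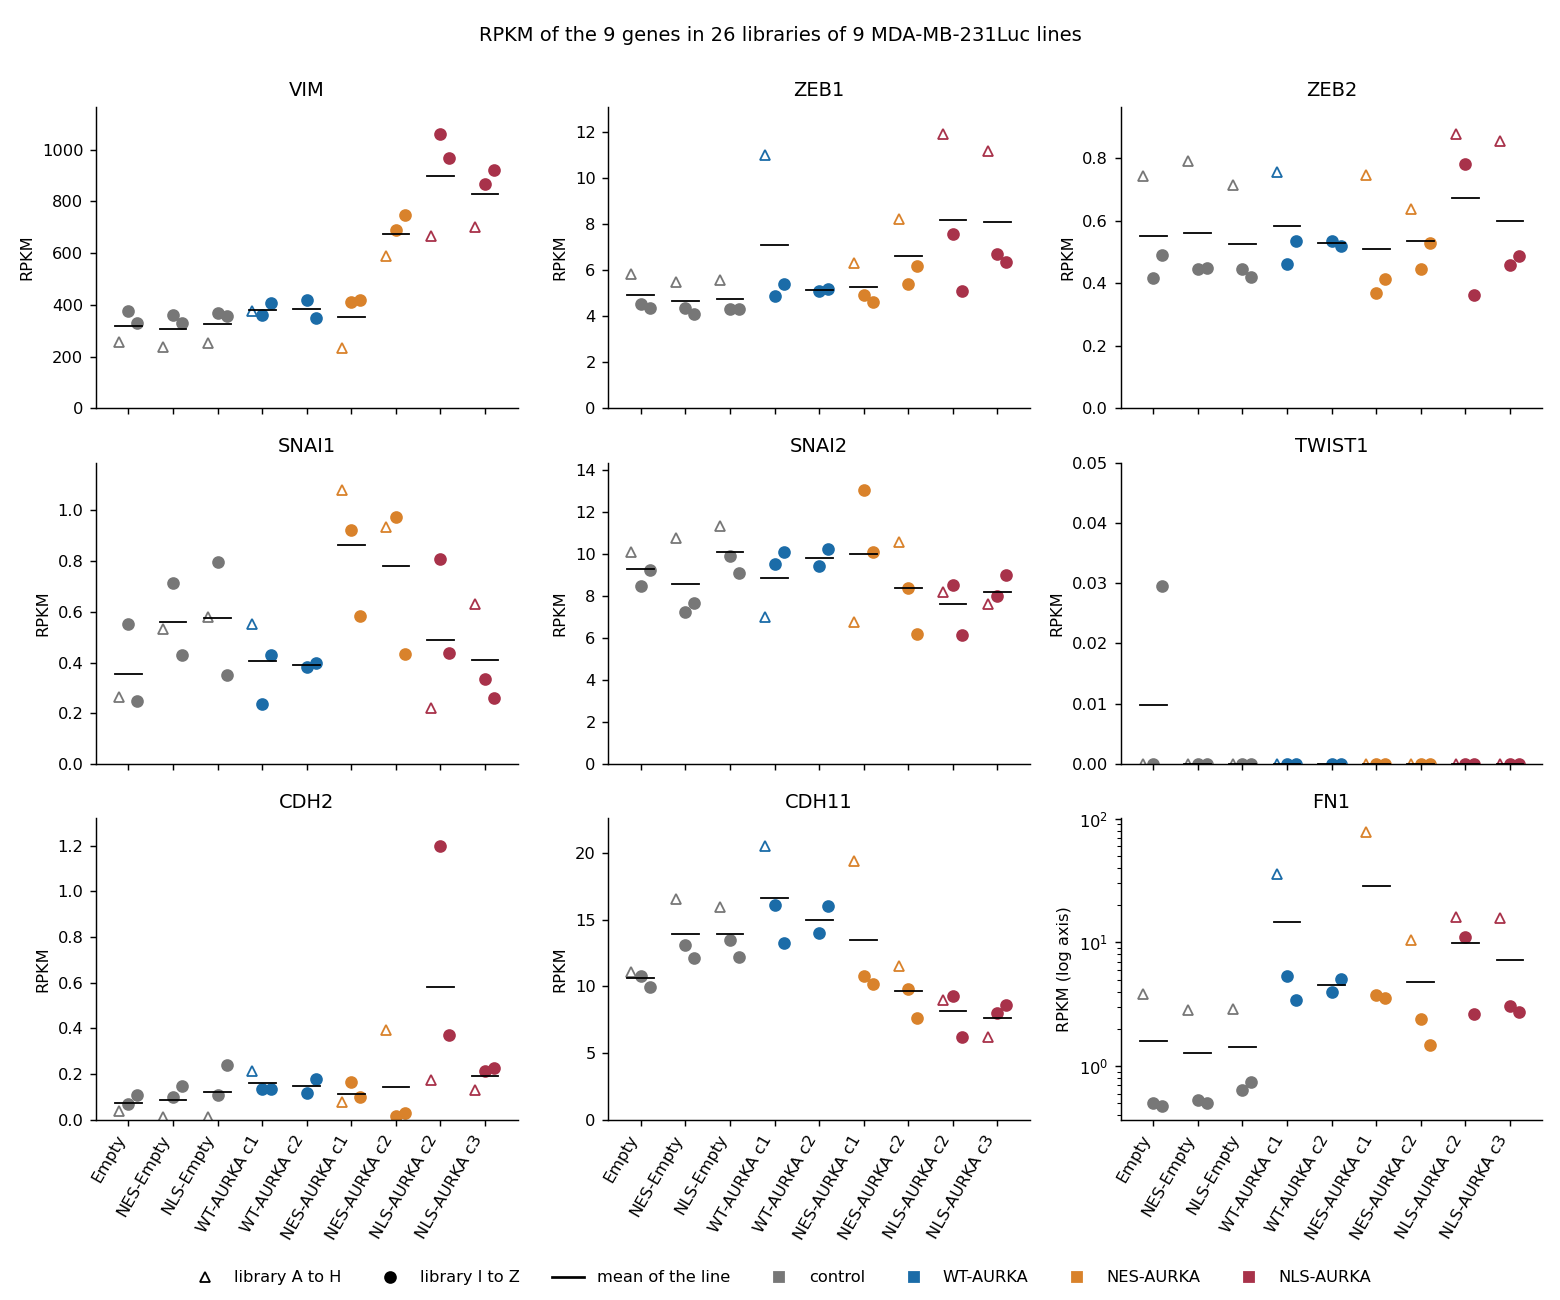
RPKM of each of the 9 genes (y axis, linear from 0 except FN1 on a log axis) in the 26 libraries, by line (x axis); open triangles are libraries A to H, filled circles libraries I to Z, and the black line is the mean of the line. VIM is above 590 RPKM in NES-AURKA c2 and both NLS-AURKA clones, FN1 is above the controls of its own letter set in every AURKA library, and ZEB2, SNAI1, TWIST1 and CDH2 stay at or below 1.20 RPKM.

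Constructs were compared with limma on 1 mean of log2(RPKM + 1) per line, with Benjamini-Hochberg adjustment over all 12589 genes. This scale understates the change of genes near 1 RPKM. VIM was higher in NLS-AURKA than in WT-AURKA lines by 1.16 on the log2 scale (SE 0.25, adjusted p = 0.00705), with line means of 863.8 and 381.7 RPKM. It was higher in NLS-AURKA than in NES-AURKA lines by 0.83 (SE 0.25, adjusted p = 0.0327), with a mean of 515.0 RPKM in NES-AURKA. In limma, NES-AURKA against WT-AURKA gave 0.33 (95% interval -0.23 to 0.90, adjusted p = 0.462), and all AURKA against all control lines 0.78 (0.08 to 1.48, adjusted p = 0.114). No AURKA line mean lay below a control line mean, and how many other genes separated in this way was not counted. With the line as a random block and a letter-set covariate VIM was called in AURKA against control lines (0.77, adjusted p = 0.00880), the 1 of 20 alternatives in which it was. The NLS-AURKA against WT-AURKA call was kept in 16 of 19 alternatives and lost without NLS-AURKA c2 (adjusted p = 0.0550), without a filter on low genes (0.0505) and in the 8 libraries A to H alone (0.338). The NLS-AURKA against NES-AURKA call was kept in 10 of 20, with adjusted p from 7.65e-05 to 0.216. It was lost when any 1 line other than the NES-AURKA clones was left out (adjusted p from 0.0526 to 0.152). Without NES-AURKA c1, NES-AURKA against WT-AURKA gave 0.82 (adjusted p = 0.00281). Within libraries I to Z the differences were 1.31 (adjusted p = 0.00194) and 0.80 (adjusted p = 0.0189).

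Against its own vector line, VIM rose in NLS-AURKA c2 by 1.46 (SE 0.27, adjusted p = 0.000563), in NLS-AURKA c3 by 1.36 (SE 0.27, adjusted p = 0.00116) and in NES-AURKA c2 by 1.15 (SE 0.27, adjusted p = 0.00779). These single-line calls also need a log2 difference of at least 1 and were fitted on all 26 libraries. Both NLS calls held in 11 of 11 alternatives, and the NES-AURKA c2 call in 10 of 11, lost without NES-Empty replicate 1 (adjusted p = 0.0519). WT-AURKA c1, WT-AURKA c2 and NES-AURKA c1 stood at 0.27, 0.27 and 0.18 from their controls, with adjusted p from 0.652 to 0.765. Differences of effects between constructs came from the same fit of all 26 libraries. Their p-values therefore measure the spread between libraries, not between clones, and each effect rests on 1 vector line. The NLS-AURKA effect was larger than the WT-AURKA effect by 1.14 (SE 0.33, adjusted p = 0.0375), a test that 8.16% of genes passed. The NLS-AURKA effect exceeded the NES-AURKA effect by 0.75 (adjusted p = 0.214, with 7.15% of genes called), and by the same value with a letter-set term (adjusted p = 0.00208). NES-AURKA minus WT-AURKA gave 0.39 (adjusted p = 1, with 0.445% called). The NES-AURKA clones differed by 0.97 (c2 minus c1, SE 0.27, adjusted p = 0.0412), just under the fold required, and by 1.03 with TMM scaling, where the call was made. VIM was lower in A to H than in I to Z libraries of the same line by 0.45 (adjusted p = 7.6e-06), and the clone differences within I to Z were 1.48, 1.30 and 1.06 for NLS-AURKA c2, NLS-AURKA c3 and NES-AURKA c2.

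**Figure D2:**
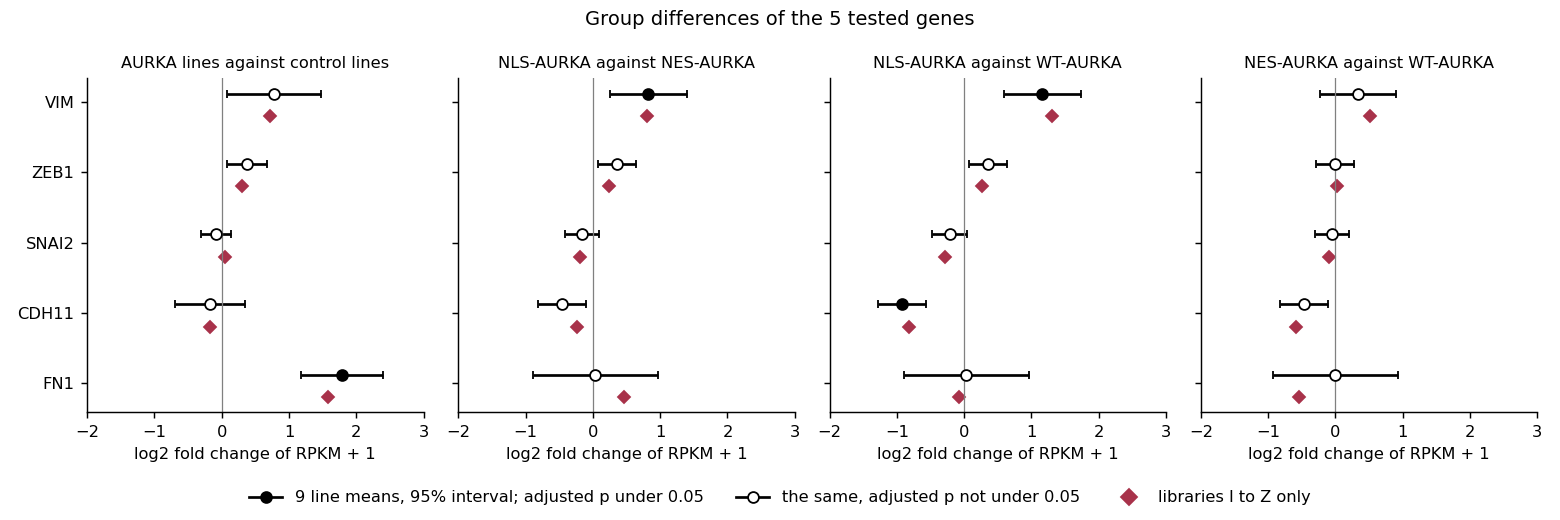
Log2 fold change of RPKM + 1 (x axis) of the 5 tested genes in 4 group comparisons; circles are differences of line means with 95% intervals, filled where the adjusted p is under 0.05, and diamonds are the same differences in libraries I to Z alone. The filled points are FN1 in AURKA against control lines (1.79), VIM in NLS-AURKA against NES-AURKA (0.83) and WT-AURKA (1.16), and CDH11 in NLS-AURKA against WT-AURKA (-0.92).

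Of the 5 transcription factor genes, ZEB1 and SNAI2 were expressed in every library, ZEB2 and SNAI1 were at trace level, and TWIST1 was listed at 0 in 25 of 26. A gene was tested where at least 2 libraries had 1 RPKM, which 5 of the 9 members passed: VIM, ZEB1, SNAI2, CDH11 and FN1. ZEB1, the main repressor of CDH1 in mesenchymal breast cancer lines, had 5.47 to 5.85 RPKM in the 3 A to H control libraries. The A to H libraries of AURKA lines had 6.30 (NES-AURKA c1), 8.20 (NES-AURKA c2), 10.97 (WT-AURKA c1), 11.2 (NLS-AURKA c3) and 11.9 (NLS-AURKA c2). In I to Z, the controls had 4.07 to 4.53 RPKM and the AURKA libraries 4.60 to 7.55. Within each letter set, every AURKA library was thus above every control library, in I to Z only narrowly (4.60 against 4.53). How many other genes separated in this way was not counted, and libraries of the same line are not independent lines. The NLS-AURKA line means (8.17 and 8.06 RPKM) were the highest.

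No ZEB1 difference passed the threshold. AURKA against control lines gave 0.38 (95% interval 0.08 to 0.67, adjusted p = 0.0724), NLS-AURKA against NES-AURKA 0.36 (0.08 to 0.64, adjusted p = 0.0523) and NLS-AURKA against WT-AURKA 0.36 (0.08 to 0.64, adjusted p = 0.0505). For NES-AURKA against WT-AURKA the value was 0.00 (-0.29 to 0.28). Calls were made in 3 of 20, 5 of 20 and 5 of 19 alternatives for the first 3. With the line as a random block and a letter-set covariate the first passed (0.41, adjusted p = 0.0119), as did the second (0.36, adjusted p = 0.00653). In A to H alone NLS-AURKA against WT-AURKA gave 0.06 (adjusted p = 0.870), with 1 WT-AURKA library. ZEB1 was higher in A to H than in I to Z libraries of the same line by 0.53 (adjusted p = 4.16e-06), which widened the spread within lines. With a term for the letter set, NLS-AURKA c2 and c3 stood 0.62 and 0.63 above NLS-Empty (adjusted p = 0.00155 and 0.00150), under the fold required for a single-line call. ZEB1-AS1, the antisense gene beside ZEB1, had 0.440 to 1.18 RPKM, and its difference between AURKA and control lines was -0.01 (adjusted p = 0.951). Whether the counting used strand is not given in the sources used here, so reads of ZEB1 and ZEB1-AS1 may be mixed where they overlap.

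SNAI2, the gene of Slug, had 7.23 to 11.3 RPKM in control libraries, with a median of 9.24. It had 7.004 to 10.2 RPKM in WT-AURKA, 6.17 to 13.03 in NES-AURKA and 6.16 to 8.99 in NLS-AURKA libraries. The groups overlapped, and none of the 4 group comparisons passed, with log2 differences of -0.22 to -0.05 and adjusted p from 0.166 to 0.813. For NLS-AURKA against WT-AURKA the interval ran from -0.47 to 0.04. SNAI1, the gene of Snail, had medians of 0.534 RPKM in control, 0.397 in WT-AURKA, 0.930 in NES-AURKA and 0.387 in NLS-AURKA libraries, and its single value above 1 was 1.08 in library F of NES-AURKA c1. Without the filter, NES-AURKA against WT-AURKA gave 0.37 for SNAI1 (adjusted p = 0.138) and NLS-AURKA against NES-AURKA -0.33 (adjusted p = 0.0748). ZEB2 had 0.362 to 0.877 RPKM in all, and was at 0.638 to 0.877 in A to H, where the highest were the NLS-AURKA libraries, against 0.362 to 0.782 in I to Z. The one library with a TWIST1 value was J of Empty, at 0.0295 RPKM.

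The 2 cadherins were unlike. CDH2, the cadherin usually taken as the partner of CDH1 loss, was at 0.0110 to 0.239 RPKM in controls and 0.0144 to 0.391 RPKM in AURKA libraries other than the I to Z libraries of NLS-AURKA. Those had 0.213 to 0.372 RPKM and 1.20 in library W of NLS-AURKA c2. CDH11, a type II cadherin of mesenchymal and bone-forming cells, was present throughout. Its values were 11.1, 10.7 and 9.97 RPKM in Empty, 16.6, 13.1 and 12.1 in NES-Empty and 15.96, 13.5 and 12.2 in NLS-Empty, with the A to H library first. WT-AURKA lines were at the top, with 20.6, 16.1 and 13.3 RPKM in c1 and 14.0 and 16.02 in c2. NES-AURKA c1 had 19.4, 10.8 and 10.2 RPKM and NES-AURKA c2 11.5, 9.82 and 7.61. NLS-AURKA c2 had 8.96, 9.28 and 6.23 RPKM and NLS-AURKA c3 6.22, 8.03 and 8.59. All WT-AURKA libraries were above all NLS-AURKA libraries, a separation that was not counted over other genes.

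CDH11 was lower in NLS-AURKA than in WT-AURKA lines by -0.92 on the log2 scale (SE 0.16, adjusted p = 0.00223), with line means of 7.88 and 15.8 RPKM. The call held in 18 of 19 alternatives and was lost in the A to H libraries alone, where the difference was -1.35 (adjusted p = 0.101). NES-AURKA lay between, at -0.46 from WT-AURKA (adjusted p = 0.127) with NLS-AURKA at -0.46 from NES-AURKA (adjusted p = 0.0518). The first was called in 4 of 20 alternatives, among them I to Z alone (-0.59, adjusted p = 0.0394), the line as a random block with a letter-set covariate (-0.51, adjusted p = 0.0288) and without library F (-0.60, adjusted p = 0.0419). The second was called in 8 of 20, and was -0.23 in I to Z alone and -0.91 in A to H alone. The WT-AURKA and NLS-AURKA clones stood on opposite sides of their vector lines. WT-AURKA c1 and c2 were at 0.58 and 0.46 from Empty, and NLS-AURKA c2 and c3 at -0.71 and -0.79 from NLS-Empty, none reaching the fold of 1. In the fit of all 26 libraries, the difference between these effects was -1.28 (NLS minus WT, SE 0.27, adjusted p = 0.00568). That p-value measures the spread between libraries, not between clones. Pooling all constructs left -0.17 between AURKA and control lines (adjusted p = 0.641).

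**Figure D3:**
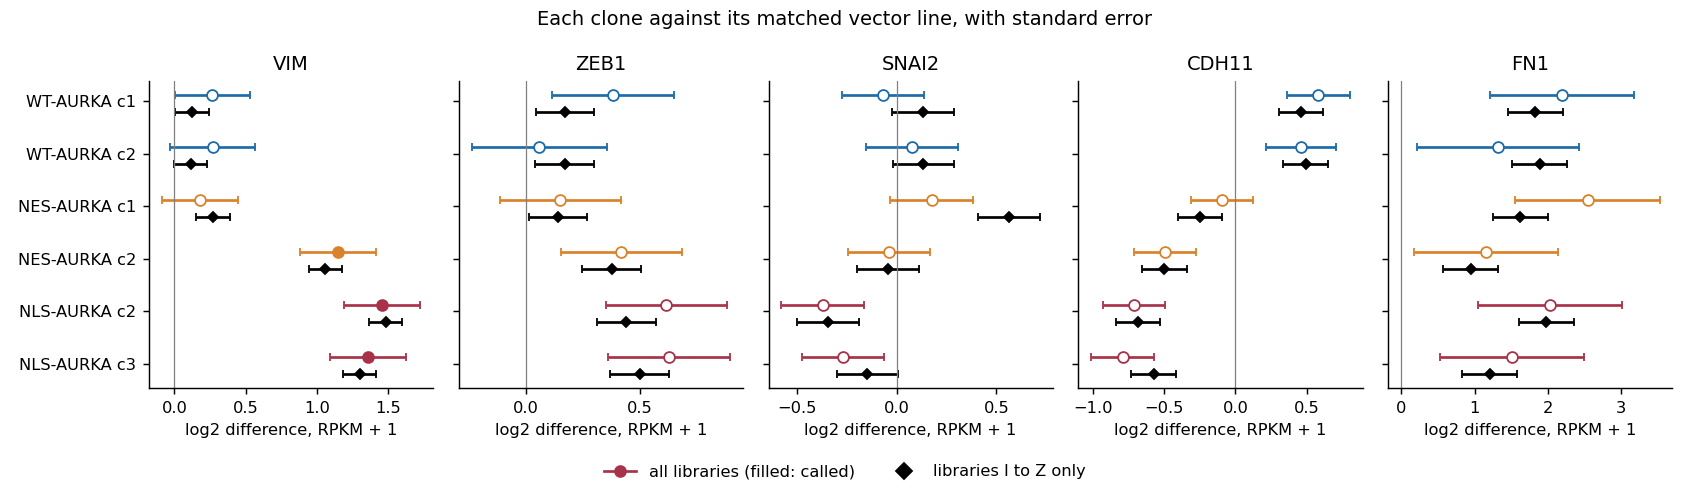
Log2 difference of RPKM + 1 (x axis) between each AURKA clone and its matched vector line for the 5 tested genes, with standard errors; circles use all libraries (filled where called at an adjusted p under 0.05 and a difference of at least 1) and diamonds libraries I to Z alone. VIM is called in NES-AURKA c2 (1.15), NLS-AURKA c2 (1.46) and NLS-AURKA c3 (1.36), CDH11 lies above 0 in WT-AURKA and below 0 in NLS-AURKA clones, and FN1 lies above 0 in every clone.

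FN1 separated AURKA from control lines. In libraries I to Z it was at 0.478 to 0.740 RPKM in controls, 3.41 to 5.32 in WT-AURKA, 1.49 to 3.77 in NES-AURKA and 2.66 to 11.1 in NLS-AURKA libraries. In A to H it was at 3.85, 2.82 and 2.89 RPKM in Empty, NES-Empty and NLS-Empty. The A to H libraries of WT-AURKA c1, NES-AURKA c1 and NES-AURKA c2 had 35.5, 77.9 and 10.4 RPKM, and those of NLS-AURKA c2 and c3 had 16.1 and 15.7. Every AURKA library was above every control library of its letter set, while the A to H controls overlapped the I to Z AURKA libraries. How many other genes separated in this way was not counted. The difference of AURKA and control line means was 1.79 (SE 0.28, 95% interval 1.17 to 2.40, adjusted p = 0.00250), and it passed in 20 of 20 alternatives, at 1.56 to 2.58 with adjusted p from 0.000337 to 0.0198. It was 1.58 in I to Z alone, 2.58 in A to H alone and 1.56 without library F, which held the value of 77.9 RPKM. FN1 was higher in A to H than in I to Z libraries of the same line by 2.07 (adjusted p = 3.26e-07).

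No FN1 difference between constructs passed the threshold. The 3 construct differences lay between 0.00 and 0.03 with adjusted p from 0.964 to 0.999, and their intervals reached from -0.93 to 0.96. They moved with the libraries used. WT-AURKA c2 had no A to H library, the set in which FN1 was higher, and these line means carried no letter-set term. In the fit of all libraries, the NLS-AURKA effect minus the WT-AURKA effect was 0.01, and -0.33 with that term. For NES-AURKA minus WT-AURKA these were 0.09 and -0.25. Without library F, NLS-AURKA against NES-AURKA gave 0.71 (adjusted p = 0.0614) and NES-AURKA against WT-AURKA -0.68 (adjusted p = 0.174). Within I to Z these were 0.46 and -0.54, and within A to H -0.83 and -0.28, with -1.11 for NLS-AURKA against WT-AURKA (adjusted p = 0.546). With all libraries no single clone was called against its vector line, at 1.16 to 2.54 with standard errors near 1. With a letter-set term as a block, standard errors were 0.45 to 0.51 and 5 of the 6 clones were called, at 1.503 to 2.54 with adjusted p from 0.000208 to 0.0137, the exception being NES-AURKA c2 (1.16, adjusted p = 0.0643). That fit also called FN1 lower in NES-AURKA c2 than in c1 (-1.38, adjusted p = 0.0376). Within I to Z, 5 of the 6 clones were called, at 1.82 (WT-AURKA c1), 1.88 (WT-AURKA c2), 1.62 (NES-AURKA c1), 1.98 (NLS-AURKA c2) and 1.20 (NLS-AURKA c3), with adjusted p from 0.000931 to 0.0234. NES-AURKA c2, one of the clones with high VIM, stood at 0.94 (adjusted p = 0.0726). No tested member passed the limma F-test among the 3 control lines (adjusted p of 1), and the widest log2 spread of their means was 0.36, for CDH11. That test called 0.0477% of genes.

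Read against all genes, the members were few among many. AURKA against control lines called 1 of 5 members (FN1, higher) and 19.2% of 12589 genes (8.85% higher, 10.4% lower). NLS-AURKA against NES-AURKA called 1 of 5 (VIM, higher) and 33.2% of genes (19.1% higher, 14.1% lower), and NLS-AURKA against WT-AURKA 2 of 5 (VIM higher, CDH11 lower) and 36.1% (18.7% higher, 17.4% lower). NES-AURKA against WT-AURKA called none of the 5, with 1 of them (CDH11) at an unadjusted p under 0.05, and 4.87% of genes (1.56% higher, 3.30% lower). Against the vector lines, VIM was the only member called. The shares of genes called were 2.83% for NES-AURKA c2 (1.06% higher, 1.77% lower), 5.75% for NLS-AURKA c2 (3.07% and 2.68%) and 5.13% for NLS-AURKA c3 (2.76% and 2.38%). They were 3.53% for WT-AURKA c1 (2.26% and 1.28%), 3.19% for WT-AURKA c2 (2.05% and 1.14%) and 4.43% for NES-AURKA c1 (2.48% and 1.95%), where no member was called. Between the NES-AURKA clones 1.08% of genes were called (0.238% higher in c2, 0.842% lower) and no member. Between the WT-AURKA clones and between the NLS-AURKA clones limma called no gene (0.00%), with 57 and 114 genes at an unadjusted p under 0.05. Between the letter sets 4 of 5 members were called, against 72.5% of genes (29.7% higher in A to H, 42.8% lower).

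Over the 9 line means, ZEB1 followed VIM (Pearson r = 0.91), while CDH11 (-0.83) and SNAI2 (-0.78) ran opposite to it and FN1 was looser (0.44). These are descriptions over 9 lines that share letter sets, parent line and vector. In I to Z alone they were 0.93, -0.85, -0.54 and 0.49. Across all tested genes with at least 5 RPKM in their highest line, VIM was most like PAIP2, RP11-54A9.1 and NUDT5 (r of 0.98 each). ZEB1 was most like GNL3L (0.98), SMTN and VPS13A (0.96 each), SNAI2 most like LINC00261, GAA and PLD3 (0.90 to 0.94), and CDH11 most like TP53I13, SLC30A1 and SDC2 (0.97 to 0.98). FN1 was most like ING2, CASP6 and FAM20C (0.97 to 0.98). Within I to Z these values were 0.36 (PLD3) to 0.97 (NUDT5). Such values are high by selection, since they lead a ranking of all such genes over 9 points.

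**Figure D4:**
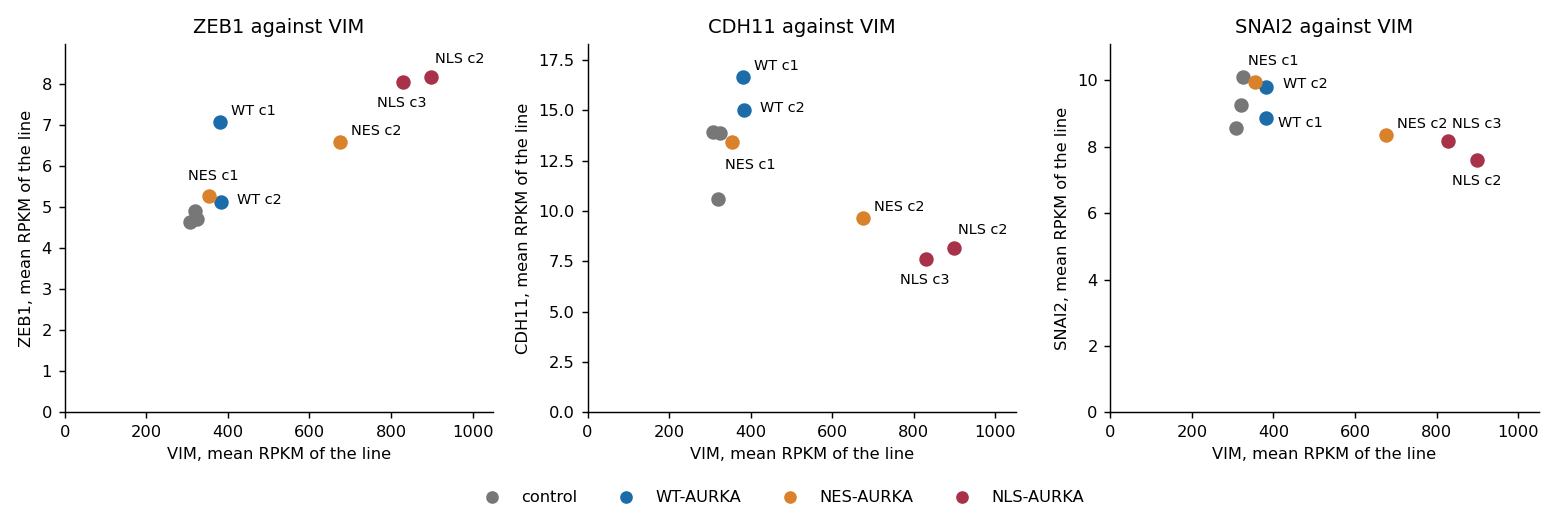
Mean RPKM of each of the 9 lines for ZEB1, CDH11 and SNAI2 (y axes) against VIM (x axis), coloured by construct. The 2 NLS-AURKA clones have the highest ZEB1 and the lowest CDH11 and SNAI2; NES-AURKA c2 lies between them and the other 6 lines on the VIM axis.

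Pathway genes were read from lists chosen with earlier results of these data known. Of 27 epithelial genes in the table that ZEB and SNAI proteins repress, 21 were tested in AURKA against control lines. Of these 14 fell, 7 did not pass and none rose, with a median of -0.79 against -0.02 over all tested genes, of which 10.4% fell, and 12 fell in I to Z alone and in A to H alone. CDH1, the textbook target, went from a mean of 3.64 RPKM in control lines to 0.104 in AURKA lines, by -1.49 (SE 0.19, adjusted p = 0.000871). Its control values were 3.14 to 15.5 RPKM in A to H and 0.369 to 1.501 in I to Z, and its AURKA values at most 0.616. CDH1 thus passed the filter only through control libraries, where it was high. The test of its fall was therefore not independent of the filter. MAL2, a membrane trafficking gene, fell by -2.74 (109.3 to 19.3 RPKM), EPCAM, the epithelial adhesion molecule gene, by -1.96 (12.3 to 2.42), CLDN1 by -1.90 (19.6 to 4.67) and OCLN by -1.59 (15.9 to 4.66), the last a pair of tight junction genes. All 5 calls held in 20 of 20 alternatives. Between constructs, NLS-AURKA against NES-AURKA had 3 higher and 4 lower of 21, and against WT-AURKA 2 higher and 5 lower. These shares were close to the 33.2% and 36.1% of all genes called. MAL2 and CLDN4 were lower in NLS-AURKA than in WT-AURKA lines (-1.73 and -1.03), and DSP, the desmoplakin gene, was higher (1.36). ST14, a protease gene of that list, was at 0.189 RPKM in NLS-AURKA and 1.18 in WT-AURKA lines.

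Of the factors that hold or shape the epithelial state, 2 rose and 2 fell of 11 tested in AURKA against control lines. Of all genes, 8.85% rose and 10.4% fell. ELF3 fell by -1.60 (7.42 to 1.86 RPKM) and ESRP2, a splicing regulator, by -1.36 (2.65 to 0.470), while EHF rose by 1.27 (4.40 to 12.1) and TFAP2C by 0.78 (1.32 to 3.06). ESRP2 was higher in NLS-AURKA than in WT-AURKA lines by 0.92 (1.05 and 0.0842 RPKM). KLF4 was lower in NLS-AURKA than in NES-AURKA lines by -1.13 (14.0 and 31.6 RPKM).

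Of 16 other transition factors tested, 3 rose and none fell in AURKA against control lines (median 0.38 against -0.02 over all genes), a share close to the 19.2% of all genes called. ETS1 rose by 1.04 (SE 0.19, adjusted p = 0.00590), from 25.1 to 53.97 RPKM, and FOSL1, an AP-1 subunit, by 0.72 (SE 0.14, adjusted p = 0.00672), from 77.9 to 131.0 RPKM. In I to Z alone 3 rose and 1 fell. Of all genes, 19.1% were higher and 14.1% lower in NLS-AURKA than in NES-AURKA lines (33.2% together). Against WT-AURKA lines 18.7% were higher and 17.4% lower (36.1% together). Of the 16 factors, NLS-AURKA lines had 5 higher and 1 lower than NES-AURKA and 5 higher and none lower than WT-AURKA. In I to Z alone these were 6 and 1, and 6 and 2, and in A to H alone 1 and 2, and none. TEAD4, a partner of YAP1, was higher than in WT-AURKA lines by 1.14 (12.7 and 4.96 RPKM), SOX9 by 1.20 (28.7 and 12.4) and FOXC1 by 0.81 (4.81 and 2.26). ETS1 was higher in NLS-AURKA than in NES-AURKA lines by 0.77 (71.3 and 41.2 RPKM).

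Other mesenchymal genes went both ways. In AURKA against control lines 9 rose and 3 fell of 31 tested (median 0.33 against -0.02), and 7 rose and 3 fell in I to Z alone. Of all genes, 8.85% rose and 10.4% fell with all libraries. MSN, the gene of the membrane-actin linker moesin, rose by 1.24 (SE 0.15, adjusted p = 0.000699), from 107.7 to 259.2 RPKM. NT5E (CD73) rose by 1.21 (112.9 to 284.6 RPKM) and CTGF by 0.88 (88.96 to 163.9), each kept in 16 of 20 alternatives. Both calls were lost when any 1 control line was left out. The CTGF call was also lost in I to Z alone, and the NT5E call without the filter. NLS-AURKA lines had 5 higher and 8 lower than NES-AURKA and 5 higher and 6 lower than WT-AURKA. Of all genes, 33.2% and 36.1% were called in these comparisons, in that order. Where VIM was highest, S100A4, also called fibroblast-specific protein, was lower by -3.36 against WT-AURKA (13.2 and 145.9 RPKM, SE 0.42, adjusted p = 0.000495), and TGFBI was lower by -2.10 against NES-AURKA (2.06 and 12.8). The collagen VI genes COL6A1 and COL6A2 were lower by -2.46 and -1.91 against NES-AURKA. LOX, a collagen crosslinking enzyme gene, was higher by 1.70 against WT-AURKA (40.8 and 11.6 RPKM) and ENG by 1.39 (2.01 and 0.131).

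**Figure D5:**
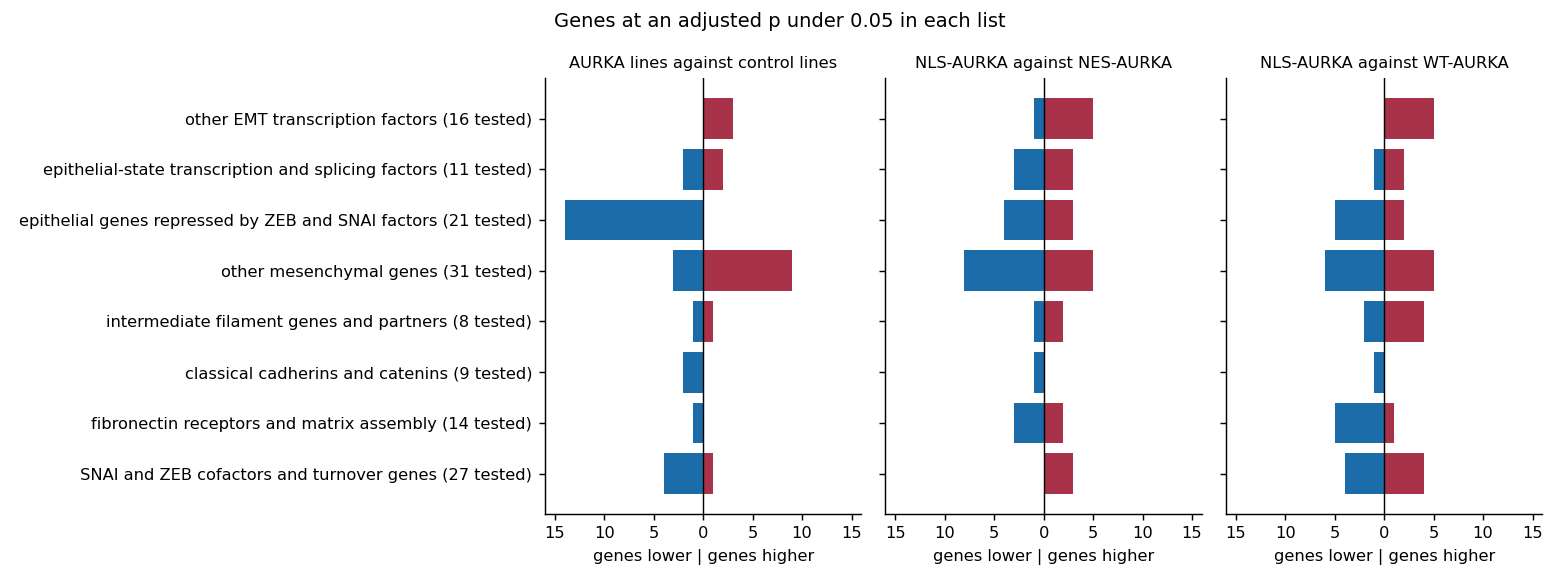
Number of genes at an adjusted p under 0.05 (x axis, higher to the right in red, lower to the left in blue) in each of 8 gene lists for 3 group comparisons. In AURKA against control lines the epithelial genes repressed by ZEB and SNAI factors have 14 lower and 0 higher of 21. The other mesenchymal genes have 9 higher and 3 lower of 31 there. In the NLS-AURKA comparisons most lists have genes on both sides. Of all tested genes, 19.2%, 33.2% and 36.1% were called in the panels from left to right.

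Genes that work with the members did not share one direction. The counts below stand beside 19.2% of all genes called in AURKA against control lines. For NLS-AURKA the shares were 33.2% against NES-AURKA and 36.1% against WT-AURKA lines. Of 8 intermediate filament genes and partners tested besides VIM, 1 rose and 1 fell in AURKA against control lines. SYNM, a filament protein that pairs with vimentin, rose (0.70, 1.57 to 3.15 RPKM, kept in 14 of 20 alternatives). The one that fell was FAM83H, a keratin organiser (-1.87, 5.21 to 0.693, kept in 20 of 20). In NLS-AURKA against WT-AURKA lines 4 of the 8 were higher and 2 lower: the cytolinker DST was higher by 1.29 (10.0 and 3.71 RPKM), the cytolinker PLEC by 0.59, and the nuclear lamin gene LMNA lower by -0.66 (75.3 and 115.8). Of 14 fibronectin receptor and assembly genes, none rose with FN1 in AURKA against control lines and 1 fell: ITGB3, an integrin subunit, by -1.32 (4.48 to 1.19 RPKM, SE 0.12, adjusted p = 0.000149). In NLS-AURKA against WT-AURKA lines 1 was higher and 5 lower, among them TGM2 (-1.36, 15.1 and 39.0 RPKM), LTBP1 (-1.31) and the syndecans SDC4 (-0.97) and SDC2 (-0.83). Of 9 other cadherins and catenins, CDH1 and CTNNA1 fell and none rose in AURKA lines, the latter by -0.28 (76.6 to 63.1 RPKM), kept in 11 of 20 alternatives. Of 27 cofactor and turnover genes of SNAI and ZEB proteins, 1 rose and 4 fell, a share close to the 19.2% of all genes. Among those that fell were the ubiquitin ligase subunit genes SKP2 (-0.52, kept in 17 of 20 alternatives) and BTRC (-0.39, kept in 13 of 20). In I to Z alone none rose and 5 fell, and in A to H alone 1 rose and none fell. In NLS-AURKA against NES-AURKA lines 3 were higher and none lower with all libraries, 4 higher and 5 lower in I to Z alone. The 3 were SMARCA4 (0.82), FBXO11, whose ligase acts on Snail proteins (0.69), and the kinase gene LATS2 (0.63).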

How the data were processed

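Total RNA of 26 libraries from 9 MDA-MB-231Luc lines was sequenced (KAPA mRNA Hyper Prep libraries, per the labels' protocols). The authors deposited 1 table of RPKM per gene; HISAT2, SAMtools, Partek and hg19 are named in the submitters' processing notes, with no versions or roles. The sources used here give neither the annotation nor the strand setting. The values are not counts, so no count test was run. Reads per library were estimated from the commonest value of RPKM times transcript length among low values of 3474 genes with 1 GENCODE transcript, taken as 1 read.

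Columns were matched to samples by title letter. Genes with at least 1 RPKM in 2 libraries (12589 of 33562) were tested with limma 3.58.1 under R 4.3.3. The scale was log2 of RPKM plus a pseudocount of 1, with Benjamini-Hochberg adjustment at 0.05. Group comparisons used 1 mean per line. Single-line comparisons used all libraries with 1 coefficient per line and required a log2 difference of at least 1. Differences of effects between constructs used that library-level fit, without the fold requirement. A letter-set fit used the 8 lines with both sets. The fits were tested on simulated data with known changes. Alternatives changed the pseudocount, filter, scaling, letter set and the lines or replicates used.

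The members and gene lists were chosen with earlier results of these data known. Genes were named by rule: the 9 members, 3 genes most like each tested member, up to 4 called genes with the largest change per list and comparison, AURKA, CDH1 and antisense genes.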

Additional observations from a re-analysis of the deposited data

Results flagged for a closer look

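The members were examined in each construct group with 4 to 10 libraries, and the NLS-AURKA, NES-AURKA and WT-AURKA effects were compared with each other. That comparison was fitted on all 26 libraries, so its p-values measure the spread between libraries, not between clones. In the search for outlying libraries, chance flags about 1 in 20 groups where the libraries of a group are alike, and 33 groups were examined. These groups pooled lines and both letter sets, so that rate does not hold here.

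The change of VIM from vector line to AURKA clones was larger in log2 terms for NLS-AURKA, by 1.14 relative to WT-AURKA (SE 0.33, adjusted p = 0.0375, limma), and by 1.22 with a term for the letter set (adjusted p = 2.38e-05). The change of CDH11 differed between the same constructs by -1.28 (SE 0.27, adjusted p = 0.00568), and by -1.32 with that term (adjusted p = 0.000200). The NLS-AURKA clones also carried another guide and cDNA version than the WT-AURKA clones, which cannot be told apart from the construct.

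Library D of WT-AURKA c1 stood apart from the other 4 WT-AURKA libraries in 4 members. Its FN1 was 35.5 RPKM, with the next at 5.32. Its ZEB1 was 10.97 RPKM with the next at 5.39, and its ZEB2 0.758 with the next at 0.536. Its SNAI2 was 7.004 RPKM, below the 9.41 of the next. Library D is the only A to H library of the WT-AURKA lines, so the library and the letter set cannot be told apart there, and its AURKA value of 84.1 RPKM also stood apart. Library F of NES-AURKA c1 had 77.9 RPKM of FN1, with the next NES-AURKA library at 10.4, and 19.4 RPKM of CDH11, with the next at 11.5. Library W of NLS-AURKA c2 had 1.20 RPKM of CDH2, with the next at 0.372. Library J of Empty was the one control library with a TWIST1 value, 0.0295 RPKM, the other 8 being listed at 0.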

How the results depend on the processing

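Among 20 alternatives, FN1 kept its call between AURKA and control lines in all. VIM between NLS-AURKA and NES-AURKA lines was the least stable call of a member, kept in 10 of 20. Numbers of genes called moved by over 1.5 times in these cases. With a pseudocount of 0.1, the calls were 867 (WT-AURKA c1), 698 (WT-AURKA c2), 1010 (NES-AURKA c1), 726 (NES-AURKA c2), 1277 (NLS-AURKA c2) and 1164 (NLS-AURKA c3) against the vector lines, and 274 between the NES-AURKA clones. With I to Z alone, they were 228 between the NES-AURKA clones, 11 between the NLS-AURKA clones and 65 among control lines, and 22 among control lines with a letter-set term. With the line as a random block, NES-AURKA against WT-AURKA gave 1276. With A to H alone (8 libraries, chosen after seeing the data), the calls were 1455 for AURKA against control, 986 and 387 for NLS-AURKA against NES-AURKA and WT-AURKA, and 0 for NES-AURKA against WT-AURKA.

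Leaving out 1 line at a time gave 915 to 2669 calls for AURKA against control lines, 2250 to 5473 for NLS-AURKA against NES-AURKA, 2509 to 6267 for NLS-AURKA against WT-AURKA and 20 to 2433 for NES-AURKA against WT-AURKA. The extremes came without NLS-Empty and NES-AURKA c2, without NLS-AURKA c2 and NES-AURKA c2, and without NLS-AURKA c2 and NES-AURKA c1, in that order, for the first 3. Leaving out 1 library at a time gave 225 to 364 calls for WT-AURKA c2 against Empty and 3 to 6 among control lines. In A to H alone, 3 differences between NLS-AURKA and WT-AURKA lines changed sign: AURKA to -0.35, KLF4 to 0.76 and PLEC to -0.65; the cause was not tested. Sign changes of differences that were called in neither setting were not counted. The share of calls that were higher in NES-AURKA than WT-AURKA lines was 32.1%, 47.1% with TMM scaling and 52.8% with a fixed sum. No paired analysis was possible because the labels give no replicate numbers shared between lines. The letter set and the line were used as blocking terms. ZEB2, SNAI1, TWIST1 and CDH2, at or below 1.20 RPKM, were left out by the filter on low values.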
